A study of Mus musculus with 2 samples.

Results

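Interferon-high tumor cells are the tumor cells with the largest share of transcripts from 8 interferon-stimulated genes. Single cells of EMT6 tumors were sequenced in 2 libraries. EMT6 is a mouse mammary carcinoma line, and 200000 cells of it had been injected under the skin of BALB/c mice. The cells were chosen by measured values of Ifit1, Ifit3, Ifit3b, Isg15, Gbp3, Apol9a, Apol9b and Oas1g, and the 3% of tumor cells with the highest summed share of unique molecular identifiers (UMIs) from them were kept in each library. This gave 321 of 10711 tumor cells (of 16115 cells in all) in the Olaparib + LLY-283 group and 74 of 2467 tumor cells (of 7542) in the Combo group, or 395 of 23657 cells together. Because 3% were kept by rule, the number of these cells says nothing about how common they were under either treatment.

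Both groups received LLY-283, a PRMT5 inhibitor, at 50 mg/kg in cycles of 3 days on and 4 days off, and Olaparib, a PARP inhibitor, at 50 mg/kg daily. The Combo group also received anti-PD-1 antibody, 200 µg every 3 days. Each group was 1 library of tumors pooled from 3 mice, and no untreated library was analysed here. Treatment, pool of mice and library can therefore not be told apart, no test between conditions was possible, and every interval below is a 95% interval for counting error alone.

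Type I interferons bind the receptor of Ifnar1 and Ifnar2 chains, whose kinases Jak1 and Tyk2 activate STAT factors. Together with IRF9 these bind the interferon-stimulated response element (ISRE) and switch on antiviral genes. Interferon gamma acts through its own receptor and the GAS element, and many genes respond to both. In tumors the response is known for antigen presentation, chemokines that draw T cells, and the checkpoint ligand PD-L1.

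Tumor cells were defined by UMIs of the epithelial keratins Krt8 and Krt18 and by a near absence of Tyrobp and Ptprc, so their keratin levels follow from the rule. Krt8 stood at 718 counts in 1000000 UMIs (CPM) in the interferon-high cells and 832 CPM in the other tumor cells of the Olaparib + LLY-283 tumors, and at 630 and 724 CPM in Combo. In immune cells it stood at 196 and 119 CPM, with a UMI in 40.1% and 51.4% of them. Of the epithelial markers that the rule did not use, only Epcam and Cdh1 are given here, and both were near 0. Epcam, an epithelial adhesion protein, stood at 2.19 CPM in the interferon-high cells against 0.500 CPM in immune cells of the Olaparib + LLY-283 tumors, and at 2.15 against 3.42 CPM in Combo. Cdh1, which encodes E-cadherin, had 1 and 2 UMIs in all interferon-high cells, or 0.274 against 12.004 CPM and 0.536 against 10.5 CPM in immune cells. The name tumor cells thus rests on the keratins of the rule and not on Epcam or Cdh1. The mesenchymal gene Vim stood at 6178 and 6278 CPM in the interferon-high cells. A list of 8 fibroblast markers, led by Col1a2, summed to 2245 against 2181 CPM in the interferon-high and the other tumor cells of the Olaparib + LLY-283 tumors and to 2197 against 2351 CPM in Combo, above the 838 and 384 CPM of immune cells. Immune cells were those with 0.1% or more of UMIs from Tyrobp and Ptprc, 534 and 1289 cells. A set of 14 macrophage markers summed to 168 CPM in the interferon-high cells and 202 CPM in the other tumor cells of the Olaparib + LLY-283 tumors, and to 217 and 233 CPM in Combo, while immune cells held 28453 and 25062 CPM. Lyz2 was the most abundant of these markers, at 61.7 and 67.3 CPM in the Olaparib + LLY-283 tumors and 89.6 and 94.0 CPM in Combo, and none of the 14 was at 0 in both libraries. C1qa, a complement subunit made by macrophages, had a UMI in 10.9% of interferon-high and 11.6% of other tumor cells of the Olaparib + LLY-283 tumors, and in 43.2% and 48.7% in Combo, so macrophage transcripts were at similar low levels in both classes. Of 10 T and NK markers, Cd3d, Cd3g, Cd2, Gzma and Ncr1 were at 0 in the interferon-high cells of both libraries. The 10 markers together had 7 and 6 UMIs there, or 1.92 against 2.59 CPM in the other tumor cells of the Olaparib + LLY-283 tumors and 1.61 against 2.61 CPM in Combo. The 8 neutrophil markers, none of them at 0 in both libraries, summed to 317 against 248 CPM in the Olaparib + LLY-283 tumors, or 1.28-fold (1.20 to 1.35), and to 307 against 310.3 CPM in Combo, or 0.989-fold (0.931 to 1.05). S100a9, the most abundant of them, stood at 166 against 117 CPM and 120 against 147 CPM, and the part of these markers in the differences between the classes was not tested.

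Depth did not separate the classes. The interferon-high cells had a median of 9981 UMIs and 3042 genes in the Olaparib + LLY-283 tumors, and the other tumor cells 9941 UMIs and 3048.5 genes. In Combo, with more UMIs per tumor cell, the medians were 49133.5 UMIs and 6530 genes against 46383 UMIs and 6415 genes. Mitochondrial transcripts took a median of 1.02% and 1.05% of UMIs in the Olaparib + LLY-283 tumors and 0.996% and 1.19% in Combo. The libraries shared 39 cell barcodes, 1 of which belonged to an interferon-high cell, and none to an interferon-high cell in both.

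The 8 genes that chose the cells made up a median of 0.302% of UMIs in the interferon-high cells of the Olaparib + LLY-283 tumors and 0.343% in Combo, against 0.0211% and 0.0233% in the other tumor cells. There was no gap at the threshold. The lowest chosen cell stood at 0.202% and the highest cell not chosen at 0.201% in the Olaparib + LLY-283 tumors, and at 0.253% and 0.250% in Combo. The interferon-high cells held 2.87% of the tumor UMIs and 23.4% of the tumor UMIs of the 8 genes in the Olaparib + LLY-283 tumors, and 3.14% and 29.2% in Combo. When every cell was thinned to 2000 UMIs and the choice repeated, 242 of the 321 and 50 of the 74 cells were chosen again.

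Isg15, a ubiquitin-like protein that is conjugated to target proteins, was the most abundant of the 8. It stood at 1841 CPM in the interferon-high and 206 CPM in the other tumor cells of the Olaparib + LLY-283 tumors and at 2276 and 213 CPM in Combo, and it supplied 54.6% and 50.6% of the UMIs on which the cells were chosen. Ifit1, whose product binds viral RNA that lacks cap methylation, stood at 531 against 16.4 CPM and at 906 against 13.5 CPM. Ifit3, a partner of Ifit1, stood at 269 against 5.75 CPM and at 393 against 5.13 CPM, and its near copy Ifit3b at 99.5 against 1.99 CPM and 160.1 against 1.88 CPM. Gbp3, a guanylate-binding GTPase, was less selective, with 339 against 39.3 CPM and 398 against 60.2 CPM. Apol9a stood at 167 against 33.5 CPM and 212 against 35.1 CPM, Apol9b at 88.0 against 19.0 CPM and 117 against 18.7 CPM, and the oligoadenylate synthetase gene Oas1g at 35.6 against 5.11 CPM and 34.9 against 5.82 CPM. Reads of the pairs Ifit3 and Ifit3b and Apol9a and Apol9b, of the Oas1 genes and of the Gbp genes may be split between near-identical copies, so the division within each family is uncertain.

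These levels follow from the choice itself. To describe each gene in cells it had not chosen, the choice was repeated 8 times, leaving out 1 gene each time. Chosen without Ifit3b, the top cells held 98.0 CPM of it against 2.05 CPM, or 47.8-fold (40.6 to 56.4), in the Olaparib + LLY-283 tumors and 161.5 against 1.94 CPM, or 83.5-fold (71.4 to 97.8), in Combo. Chosen without Ifit1, they held 27.2-fold and 45.2-fold more Ifit1, and chosen without Ifit3, 44.4-fold and 72.6-fold more Ifit3. For Isg15, Gbp3, Apol9a, Apol9b and Oas1g the folds lay between 4.27 and 7.64 in the Olaparib + LLY-283 tumors and between 5.72 and 9.14 in Combo. The other 2 Ifit genes, near copies included, stayed in the choice when an Ifit gene was left out, as did Apol9b without Apol9a and the reverse, so these folds still draw on the rule. Leaving out Isg15 changed the set of cells more than any other gene, with 247 of 321 and 58 of 74 cells kept.

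All 8 genes carried the ISRE core, read as GAAA, 2 bases of any kind and GAAA again on either strand, in the window from 250 bases before to 50 bases after the start of the gene in RefSeq (build GRCm38.p6). The core occurred in the windows of 3.99% of the 27025 genes of that table. The GAS letters, TTC, 3 bases of any kind and GAA, were in none of the 8 windows and in 9.55% of all. A match describes letters and is not a measured binding site. The stretches around the match nearest the start are shown for the 8 genes because these genes define the cells, each read 5′ to 3′ on the strand of its gene, with the core in capitals. Ifit1 lies at chr19:34640779-34640838 (+), Ifit3 at chr19:34583382-34583441 (+), Ifit3b at chr19:34607778-34607837 (+), Isg15 at chr4:156200850-156200909 (-), Gbp3 at chr3:142559980-142560039 (+), Apol9a at chr15:77411099-77411158 (-), Apol9b at chr15:77729016-77729075 (+) and Oas1g at chr5:120887614-120887650 (-).
Ifit1: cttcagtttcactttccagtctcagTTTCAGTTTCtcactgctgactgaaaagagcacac
Ifit3: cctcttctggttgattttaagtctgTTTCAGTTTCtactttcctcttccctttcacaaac
Ifit3b: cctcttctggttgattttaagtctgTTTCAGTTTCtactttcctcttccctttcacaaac
Isg15: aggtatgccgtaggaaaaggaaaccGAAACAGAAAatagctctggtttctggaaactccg
Gbp3: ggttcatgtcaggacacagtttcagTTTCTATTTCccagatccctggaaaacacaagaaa
Apol9a: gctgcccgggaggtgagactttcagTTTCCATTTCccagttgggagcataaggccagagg
Apol9b: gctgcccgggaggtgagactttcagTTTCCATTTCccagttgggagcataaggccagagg
Oas1g: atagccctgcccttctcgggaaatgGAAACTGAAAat

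The stretches of Ifit3 and Ifit3b are the same letters, as are those of Apol9a and Apol9b, while Ifit1 shares the core of the Ifit3 pair in a different surrounding.

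Outside the 8 genes, 10728 genes with at least 2 CPM in all tumor cells of each library were compared. A gene was called higher or lower when its summed CPM differed by at least 2-fold. In the Olaparib + LLY-283 tumors 138 genes were higher (1.29% of those compared) and 70 lower (0.652%), and in Combo 146 were higher (1.36%) and 117 lower (1.09%). In both libraries at once, 118 genes were higher (1.1%) and 5 lower (0.0466%). Of the 118, 114 also passed the 2 CPM filter in the other tumor cells alone, and 4 passed it only through the interferon-high cells. The median log2 fold over all genes compared was -0.01 and -0.04, which dividing by the class total brings near 0, and 96.8% of the genes differed by less than 2-fold in both libraries. All genes here were read in the very cells that the 8 genes had chosen, so these counts describe what accompanies them and test nothing.

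**Figure D1:**
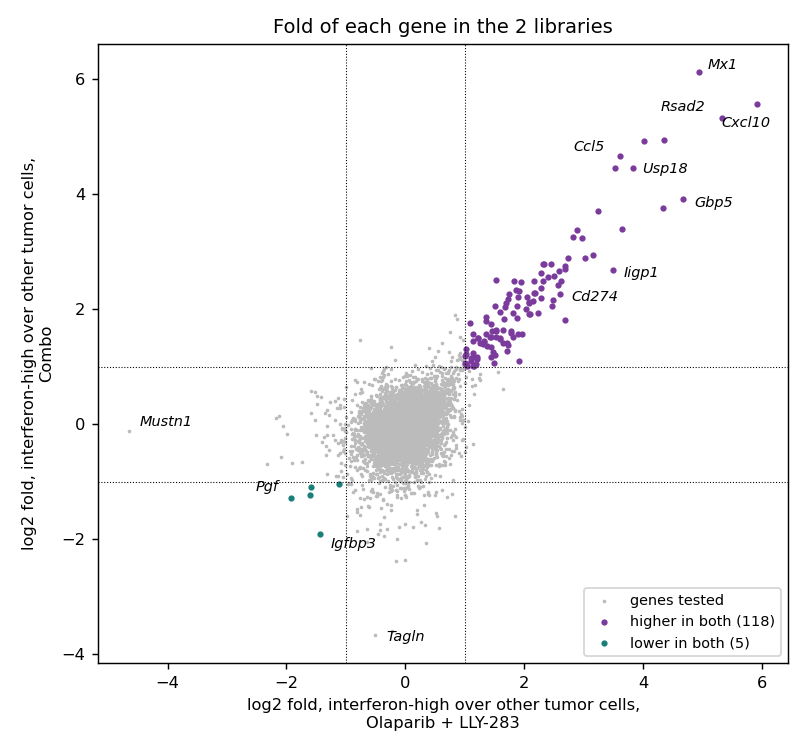
Log2 fold of each compared gene, interferon-high over other tumor cells, in the Olaparib + LLY-283 tumors (x axis) and the Combo library (y axis). Purple points are the 118 genes at least 2-fold higher in both libraries, green points the 5 at least 2-fold lower in both, and dotted lines mark 2-fold. The higher genes form 1 arm that reaches Cxcl10 and Mx1, while genes below the lower lines in 1 library mostly lie near 0 in the other.

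The gene with the largest smaller-of-both fold was Cxcl10, which ranked below Rsad2 and Mx1 once the 5 interferon-high cells richest in each gene were set aside. It is a chemokine that attracts activated T cells through the receptor Cxcr3. Cxcl10 stood at 554 CPM (529.7 to 578) in the interferon-high cells and 9.15 CPM in the other tumor cells of the Olaparib + LLY-283 tumors, a 60.5-fold difference (56.2 to 65.2), and at 442 CPM (421 to 464) against 9.29 CPM in Combo, 47.6-fold (44.0 to 51.4). Rsad2, which encodes viperin, an enzyme that makes a chain-terminating nucleotide, stood at 507 CPM (485 to 531) against 12.6 CPM and at 536 CPM (513 to 560.1) against 13.4 CPM, or 40.1-fold and 40.0-fold. Its neighbor Cmpk2, a nucleotide kinase that supplies viperin, stood at 68.5 against 3.36 CPM and 118 against 3.85 CPM. All 3 were higher in both libraries, in cells chosen by genes of the same response. At 2000 UMIs per cell, Cxcl10 had a UMI in 34.9% and 33.8% of the interferon-high cells against 1.21% and 1.67% of the others, and Rsad2 in 40.5% and 45.9% against 2.03% and 1.84%.

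Transcripts of the GTPase genes Mx1 and Mx2 were scarce outside the interferon-high cells. Mx1 stood at 39.7 CPM (33.5 to 46.8) against 1.30 CPM in the Olaparib + LLY-283 tumors and at 77.0 CPM (68.3 to 86.4) against 1.10 CPM in Combo. Mx2 stood at 25.8 against 1.60 CPM and 47.2 against 1.55 CPM. In Combo a few cells carried much of both, and the folds without the 5 top cells were 37.6 in place of 69.8 for Mx1 and 17.6 in place of 30.4 for Mx2. Both were among the 4 genes that reached 2 CPM only with the interferon-high cells counted. Other antiviral genes were already present in the other tumor cells, such as Ifi44 (132 against 16.8 CPM, and 154 against 16.4 CPM) and Oasl2 (121 against 17.1 CPM, and 163 against 17.1 CPM). Bst2, the tetherin that holds budding virus at the membrane, was abundant in both classes, with 1105 against 383 CPM and 1089 against 353 CPM, a 2.89-fold and 3.09-fold difference. Ifitm3, which blocks viral fusion, was higher still in level but differed by less, with 2399 against 1391 CPM and 2534 against 1449 CPM, or 1.72-fold and 1.75-fold.

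Counted over the list of 42 antiviral effectors outside the 8 genes, 36 were compared and 28 were higher in both libraries (1.1% of all genes were), none was lower, and 8 were neither. Their median log2 fold was 2.13 in the Olaparib + LLY-283 tumors and 2.24 in Combo, beside -0.01 and -0.04 for all genes. Mx1, Mx2 and Oas1b are in this count and median, although they reached 2 CPM only through the interferon-high cells and so could enter only with a higher level there. For Oas1b this was so in the Olaparib + LLY-283 tumors, with 1.73 CPM in the other tumor cells. With a filter of 10 CPM, which left out these genes, 19 antiviral genes were higher in both libraries. Summed, the list stood at 7606 against 3264 CPM, or 2.33-fold (2.30 to 2.36), and at 8361 against 3377 CPM, or 2.48-fold (2.45 to 2.505). Ifitm3 alone supplied 2399 and 2534 CPM of the sums in the interferon-high cells.

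**Figure D2:**
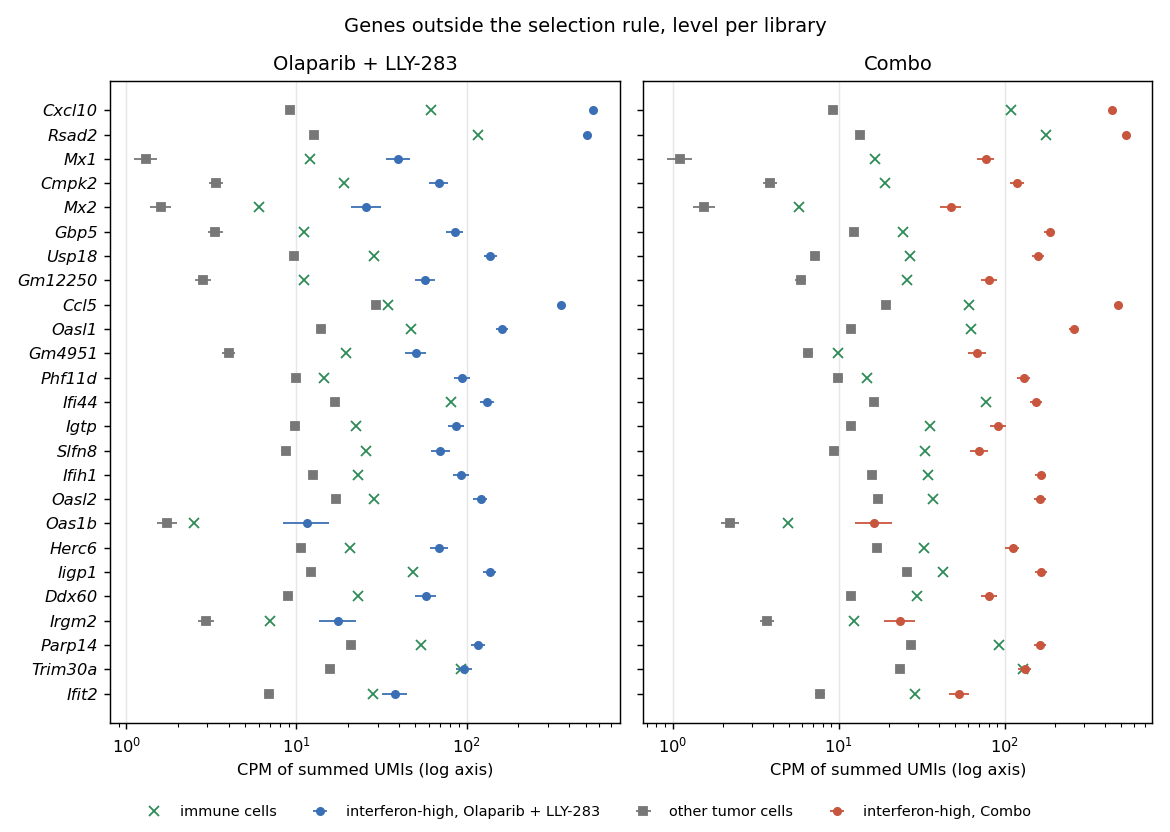
Summed CPM on a log axis of the 25 genes with the largest smaller-of-both fold, in interferon-high cells (colored circles), other tumor cells (grey squares) and immune cells (green crosses), with 95% Poisson intervals for the tumor classes. Interferon-high cells lie above other tumor cells for all 25 genes in both libraries, an order that follows from the choice of cells.

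Immune cells were not selected by the 8 genes and the interferon-high cells were, so the values are set side by side and the order between these classes follows from the choice. The 8 genes that chose the cells summed to 3371 CPM in the interferon-high cells, 327 CPM in the other tumor cells and 386 CPM in immune cells of the Olaparib + LLY-283 tumors, and to 4496, 353 and 520.2 CPM in Combo. The level over all tumor cells was 414 CPM in the Olaparib + LLY-283 tumors and 483 CPM in Combo, above the immune cells in the former and below them in the latter. The highest share in a single cell was 0.938% among interferon-high and 0.890% among immune cells of the Olaparib + LLY-283 tumors, and 1.87% and 3.33% in Combo. Tumor cells with 2 or more UMIs of Il24, which the rule had set aside, held 337 and 344 CPM, less than all tumor cells. Cxcl10 stood at 62.0 and 108 CPM in immune cells, and Ccl5 at 34.5 and 60.4 CPM.

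Ccl5, a chemokine that attracts T cells and monocytes, behaved unlike the others. It stood at 361 CPM (341 to 381) against 29.5 CPM in the Olaparib + LLY-283 tumors and at 482 CPM (459.9 to 505) against 19.1 CPM in Combo, but only 74 of 321 and 25 of 74 interferon-high cells had a UMI of it. The 5 cells with the most Ccl5 held 46.7% of its UMIs in the Olaparib + LLY-283 tumors and 78.1% in Combo, and without them the folds were 6.69 and 6.101 in place of 12.2 and 25.2. The smaller of the log2 folds of Ccl5 was 3.61, and 1.81 when tumor cells with any UMI of Tyrobp or Ptprc were left out. For Cxcl10 the top 5 cells held 20.3% and 54.4%, and the folds without them were 49.8 and 23.7 in place of 60.5 and 47.6. Of the 25 genes with the largest folds, 1 in the Olaparib + LLY-283 tumors (Ccl5) and 9 in Combo (Ccl5, Cxcl10, Mx1, Mx2, Cmpk2, Gbp5, Oasl1, Oas1b and Ifit2) had folds that were more than 1.5 times smaller without such cells. Leaving them out trims 1 class only, so by construction it tends to lower a fold. Ccl4, a chemokine of myeloid cells, passed the 2-fold rule (46.0 against 18.3 CPM, and 56.6 against 21.1 CPM) only through such cells, since without the top 5 the folds were 0.989 and 0.740. Immune cells held 661 and 1151 CPM of Ccl4.

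Of the 14 chemokines listed, 10 were compared, and 2 of them, Cxcl10 and Ccl5, were higher in both libraries, beside 1.1% of all genes. Cxcl11, a second Cxcr3 ligand, was too scarce to be compared but stood at 17.8 against 0.608 CPM and 31.6 against 0.860 CPM, with 23 and 9 interferon-high cells having a UMI. Cxcl9, the third Cxcr3 ligand, which responds chiefly to interferon gamma, had 1 and 3 UMIs in all interferon-high cells (0.274 and 0.805 CPM, against 0.543 and 1.12 CPM in the other tumor cells). The Cxcr3 ligands were thus split, with Cxcl10 abundant and Cxcl9 near the limit of detection. The neutrophil chemokine Cxcl1 was level, at 143 against 133 CPM and 145 against 160.5 CPM.

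All 11 interferon-inducible GTPases compared, of 19 listed, were higher in both libraries, beside 1.1% of all genes compared, with median log2 folds of 2.47 and 2.43. Gbp4, at a log2 fold of 1.09 in Combo, was not called without the 5% of tumor cells with most UMIs or without the 5 top cells. Guanylate-binding proteins attack the membranes of intracellular microbes, and the immunity-related GTPases load them onto such membranes. Gbp7, the most abundant, stood at 450.8 against 75.9 CPM in the Olaparib + LLY-283 tumors and 676 against 126 CPM in Combo. Gbp5 stood at 85.2 CPM (76.0 to 95.2) against 3.34 CPM and at 186 CPM (173 to 201) against 12.4 CPM, a 25.5-fold and 15.0-fold difference, or 21.7-fold and 9.93-fold without the 5 top cells. Gbp5 was thus higher in the Combo library in both classes, and its fold was smaller there. Iigp1 stood at 137 against 12.2 CPM and 165 against 25.6 CPM, Igtp at 86.6 against 9.76 CPM and 90.9 against 11.8 CPM, Irgm2 at 17.5 against 2.94 CPM and 23.3 against 3.72 CPM, and Gm12250 at 57.0 against 2.81 CPM and 80.2 against 5.92 CPM.

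The genes that were higher often lay side by side on the chromosomes. Of the 118, 44 (37.3%) had another of the 8 or the 118 genes within 50 kb, compared with 199 (1.85%) of all 10728 genes. On chromosome 19, Ifit2, Ifit3, Ifit3b and Ifit1 spanned chr19:34550694-34650009, and on chromosome 3, Gbp5, Gbp7, Gbp3, Gbp2b and Gbp2 spanned chr3:142493978-142638008 (GRCm38, GENCODE annotation). Oas2, Oas3, Oas1c and Oas1b lay within chr5:120730333-120824163, and Gm12250, Igtp and Irgm2 within chr11:58187739-58222782. These families arose by gene duplication, so neighbors are also alike in sequence.

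A promoter window was given for 92 of the 118 genes, and 34 of them (37.0%) held the ISRE core, compared with 297 of 8250 windows (3.60%) of the genes compared. GAS letters were in 14 (15.2%), compared with 659 (7.99%). Windows of the 10 genes with the most negative folds held neither in the 8 that were given. The stretches of Cxcl10, at chr5:92349068-92349127 (-), Rsad2, at chr12:26456538-26456597 (-), Gbp5, at chr3:142496744-142496803 (+), Igtp, at chr11:58199497-58199555 (+), and Irgm2, at chr11:58214888-58214947 (+), are shown because these genes lead the comparison or neighbor each other, with the core in capitals as before.
Cxcl10: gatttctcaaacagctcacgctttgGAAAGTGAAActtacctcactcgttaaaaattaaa
Rsad2: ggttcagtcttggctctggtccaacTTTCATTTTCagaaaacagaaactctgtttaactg
Gbp5: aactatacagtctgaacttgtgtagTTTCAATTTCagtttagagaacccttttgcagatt
Igtp: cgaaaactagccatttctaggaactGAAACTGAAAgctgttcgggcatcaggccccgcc
Irgm2: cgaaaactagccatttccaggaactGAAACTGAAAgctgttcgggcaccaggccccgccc

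Igtp and Irgm2 carry the same core in nearly the same surrounding. The core ends 203 bases before the start of Cxcl10, 110 bases before that of Rsad2 and 24 bases before that of Igtp.

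Interferon itself was found in very few cells. Ifnb1, which encodes interferon beta, had 22 UMIs in 5 of 321 interferon-high cells (1.56%, exact binomial interval 0.508% to 3.60%) of the Olaparib + LLY-283 tumors and none in 10390 other tumor cells. At 3 cells of the total, the latter allows a share of cells with a UMI of up to 0.0289%, which is no limit on cells that express the gene. Of 534 immune cells 2 had a UMI. The 5 cells held 14, 4, 2, 1 and 1 UMIs of Ifnb1, and each also held at least 13 UMIs of Cxcl10, 7 of Rsad2 and 10 of Ifit1. None had a UMI of C1qa or of Tyrobp, which the rule limits, and 1 had a UMI of Lyz2. In the same order, the 5 cells held 2, 2, 5, 3 and 10 UMIs of Krt8 in totals of 8296, 10325, 12212, 20837 and 8585 UMIs. Krt8 stood at 718 CPM in all interferon-high cells and 196 CPM in immune cells of this library, and the difference from these levels was not tested. In Combo no Ifnb1 UMI was found in the 74 interferon-high cells, which allows a share of cells with a UMI of up to 4.05%. The 1 Ifnb1 UMI of that library's tumor cells was in a cell that was not interferon-high. Other interferon transcripts of Combo were outside the interferon-high cells, with 7 UMIs of Ifne and 3 of Ifng in the other tumor cells and 20 of Ifng and 1 of Ifnk in immune cells. The other 15 interferon genes listed, of the alpha, gamma, epsilon, kappa, zeta and lambda types, had no UMI in the interferon-high cells of either library.

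The receptors and their kinases had folds near 1. Of 9 listed genes 8 were compared and none was 2-fold higher or lower in both libraries, a count near the background of 1.1% and 0.0466% of all genes, with median log2 folds of 0.05 and 0.02. Ifnar1 stood at 9.04 CPM (6.22 to 12.7) against 11.1 CPM and 9.92 CPM (6.99 to 13.7) against 12.5 CPM. Ifnar2 stood at 24.4 against 24.4 CPM and 28.7 against 27.0 CPM, Ifngr1 at 22.7 against 24.1 CPM and 33.0 against 31.1 CPM, and Jak1 at 149 against 149 CPM and 152 against 157 CPM. Ifnlr1, the chain of the interferon lambda receptor, had no UMI in the interferon-high cells.

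The transcription factors downstream were higher in part. Of 11 STAT and IRF genes compared, 5 were higher in both libraries, beside 1.1% of all genes. Irf7, the master factor of interferon alpha genes, stood at 189.6 CPM (176 to 204) against 38.2 CPM in the Olaparib + LLY-283 tumors and 209.7 CPM (195 to 225) against 30.5 CPM in Combo. Stat2 stood at 77.0 against 15.8 CPM and 96.5 against 18.6 CPM, and Irf9 at 39.2 against 17.8 CPM and 41.0 against 15.0 CPM. Both factors, which act together at the ISRE, were therefore higher. Irf1, a target of interferon gamma signaling, had folds of 1.93 and 2.16, and Irf3, which is activated by sensors without new transcription, was level at 15.3 against 16.2 CPM and 18.5 against 16.7 CPM.

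Of 11 genes of nucleic acid sensing compared, 6 were higher in both libraries, beside 1.1% of all genes. The RNA sensors Ifih1 (92.3 against 12.5 CPM, and 164 against 15.7 CPM), Ddx58 (72.3 against 22.5 CPM, and 104 against 24.4 CPM) and Dhx58 (38.1 against 7.67 CPM, and 61.4 against 10.9 CPM) were among them, as was Tlr3, the endosomal receptor for double-stranded RNA (31.8 against 4.98 CPM, and 27.1 against 7.71 CPM). The adaptor Mavs was level (6.58 against 6.61 CPM, and 6.70 against 7.14 CPM), and so was Tmem173, which encodes STING (28.2 against 25.6 CPM, and 27.4 against 27.3 CPM). The DNA sensor Cgas had folds of 1.51 (1.18 to 1.92) and 1.25 (0.942 to 1.63). Zbp1, a sensor of Z-form nucleic acid that is not on this list and was named after its values were seen, stood at 135 against 27.7 CPM and 155 against 34.0 CPM.

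Genes that conjugate ISG15 or damp the response were higher in both libraries for 6 of 8, beside 1.1% of all genes compared. Usp18, which removes ISG15 and blocks the interferon receptor, stood at 138 CPM (126 to 150.1) against 9.70 CPM and 159 CPM (146 to 172) against 7.24 CPM. Herc6, the ISG15 ligase of mice, stood at 69.1 against 10.7 CPM and 111 against 17.1 CPM. Socs3 was among the 2 not higher, with folds of 1.15 and 1.26. All 5 genes compared from a list of interferon-linked PARPs and Dtx3l, a ubiquitin ligase that partners Parp9, were higher too, against the same background, among them Parp14 (117 against 20.8 CPM, and 163 against 27.4 CPM) and Parp12 (96.5 against 30.9 CPM, and 82.3 against 31.1 CPM). Parp14 and Parp12 encode enzymes that add single ADP-ribose units to proteins. Parp10, another of the 5, was not called in the top 5%, when Isg15 was left out of the choice, or without the 5 top cells. Parp1, the DNA repair enzyme that Olaparib inhibits, stood at 35.3 against 38.5 CPM and 39.7 against 46.9 CPM. Prmt5, the target of LLY-283, was level at 36.2 against 36.4 CPM and 35.7 against 36.9 CPM.

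Most genes of antigen presentation by MHC class I differed by less than 2-fold. Of 21 genes of MHC class I and peptide loading compared, 2 (Tap1 and H2-T22) were higher in both libraries, beside 1.1% of all genes, both close to the 2-fold threshold, with Tap1 at 2.27-fold and 2.05-fold and H2-T22 at 2.01-fold and 2.09-fold. Neither was called in the top 5%, after thinning to 2000 UMIs or without the 5 top cells, Tap1 was also lost in the top 1%, and H2-T22 under 4 other alternatives. The median log2 fold was 0.48 and 0.41, and the summed list stood at 11140.3 against 9089.7 CPM, or 1.23-fold (1.21 to 1.24), and at 11917 against 9854 CPM, or 1.21-fold (1.20 to 1.22). B2m, the light chain of every class I molecule, stood at 2213 against 1959 CPM and 2025 against 1733 CPM. None of 5 MHC class II genes was higher in both libraries. The 6 genes of that list summed to 64.7 against 61.1 CPM, or 1.06-fold (0.926 to 1.21), in the Olaparib + LLY-283 tumors and lower in Combo, at 64.1 against 107 CPM, or 0.601-fold (0.527 to 0.683). Cd74, the most abundant, stood at 35.9 against 36.0 CPM and 29.2 against 64.1 CPM. Among checkpoint genes, Cd274, which encodes the PD-1 ligand PD-L1, stood at 16.2 CPM (12.3 to 20.9) against 2.68 CPM in the Olaparib + LLY-283 tumors and at 17.2 CPM (13.2 to 21.9) against 3.59 CPM in Combo, a 6.04-fold (4.50 to 7.99) and 4.79-fold (3.62 to 6.24) difference. It remained scarce, with a UMI in 41 of 321 and 26 of 74 interferon-high cells, and it and Lgals9 were the 2 of 9 checkpoint genes higher in both libraries, with the same 1.1% as background. Lgals9 was not called in the top 5%, after thinning or without the 5 top cells.

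**Figure D3:**
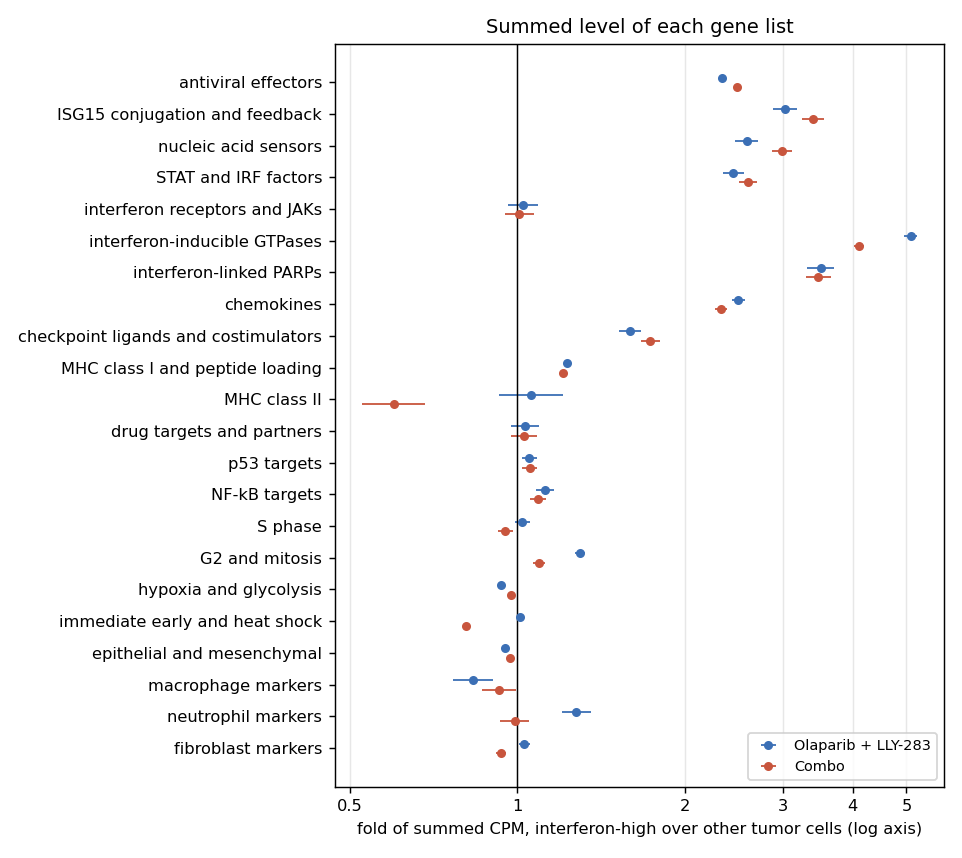
Fold of the summed CPM of each gene list, interferon-high over other tumor cells, on a log axis, with 95% intervals for counting error. Interferon-inducible GTPases lie at 5.08-fold and 4.11-fold, while receptors, drug targets, p53 targets and S phase genes lie near 1 and G2 and mitosis genes at 1.30-fold and 1.09-fold.

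Beside 1.1% of all genes called higher and 0.0466% called lower in both libraries, lists of other programs held none, a count near that background for 105 genes. These lists are not free of interferon genes, since Nfkbia, Icam1, Vcam1, Cdkn1a and others are also in the interferon-gamma signature of the study. None of 16 p53 targets, 10 NF-kB targets, 18 S phase genes, 18 G2 and mitosis genes, 15 hypoxia and glycolysis genes, 14 immediate early and heat shock genes or 14 epithelial and mesenchymal genes compared was 2-fold higher or lower in both libraries. G2 and mitosis genes summed to 2284 against 1763 CPM in the Olaparib + LLY-283 tumors, or 1.30-fold (1.27 to 1.32), and 1847 against 1688 CPM in Combo, or 1.09-fold (1.07 to 1.12). The excess lay in the 1 to 3% of tumor cells below the top 1% by the share of the 8 genes, at 2489 and 2119 CPM, while the top 1% stood at 1791 and 1261 CPM, in Combo below the 1627 CPM of the lowest 50%. Immediate early and heat shock genes were level in the Olaparib + LLY-283 tumors, with 6459 against 6397 CPM, or 1.01-fold (0.997 to 1.02), and lower in Combo, with 4252 against 5252 CPM, or 0.810-fold (0.797 to 0.822). In the 2 interferon signatures that the study used, 37 of 80 interferon-alpha genes and 50 of 143 interferon-gamma genes compared were higher in both libraries. These sets share genes with each other and were the study's own choice, so they are no independent evidence.

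Few genes were lower, and all rested on few UMIs. Igfbp3, which binds insulin-like growth factors, had 3 UMIs in the interferon-high cells of each library, or 0.822 CPM (0.170 to 2.40) against 2.59 CPM and 0.805 CPM (0.166 to 2.35) against 3.52 CPM. Pgf, a growth factor of the VEGF family, had 11 and 12 UMIs, or 3.01 CPM (1.505 to 5.39) against 11.9 CPM and 3.22 CPM (1.66 to 5.62) against 8.18 CPM. Sv2a, Gas2 and Nrbp2, the other 3 genes, had between 2 and 7 UMIs. Genes whose folds differed most between the libraries were as sparse. Mustn1 had no UMI in the interferon-high cells of the Olaparib + LLY-283 tumors (3.42 CPM in the others) and 11 in Combo (2.95 against 3.34 CPM). Tagln, an actin-binding protein, had 16 UMIs (4.38 against 6.42 CPM) in the Olaparib + LLY-283 tumors and 1 (0.268 against 5.11 CPM) in Combo. Aspn, Lcn2 and E130308A19Rik, the other 3 of these 5, had 15 UMIs each in the Olaparib + LLY-283 tumors and 2 to 3 in Combo.

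The rule took the upper end of a gradient. Tumor cells were ordered by their share of the 8 genes and cut into the lowest 50%, the next steps up to 10% and 3%, and the top 3% as 1 to 3% and top 1%. The antiviral list was higher at each step, from 2793 CPM in the lowest 50% through 3482, 5070.3 and 6744 to 9678 CPM in the top 1% of the Olaparib + LLY-283 tumors, and from 2811 through 3668, 5525 and 7449 to 10328 CPM in Combo. The GTPases went from 251 to 2842 CPM and from 382 to 3988 CPM. Cxcl10 was steeper, with 4.36, 7.36, 51.3, 309 and 1141 CPM in the Olaparib + LLY-283 tumors and 4.90, 7.56, 49.0, 163 and 1043 CPM in Combo. Irf7 already stood at 109 and 107 CPM in the step of 3 to 10%, against 22.9 and 15.0 CPM in the lowest 50%. The summed levels of these genes in the step of 3 to 10% lay between those of the steps around it. A sum does not tell intermediate cells from a mix of high and low ones, and the steps were cut by the rule's own genes. The macrophage markers went the other way, from 205 to 141 CPM and from 235 to 206 CPM.

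**Figure D4:**
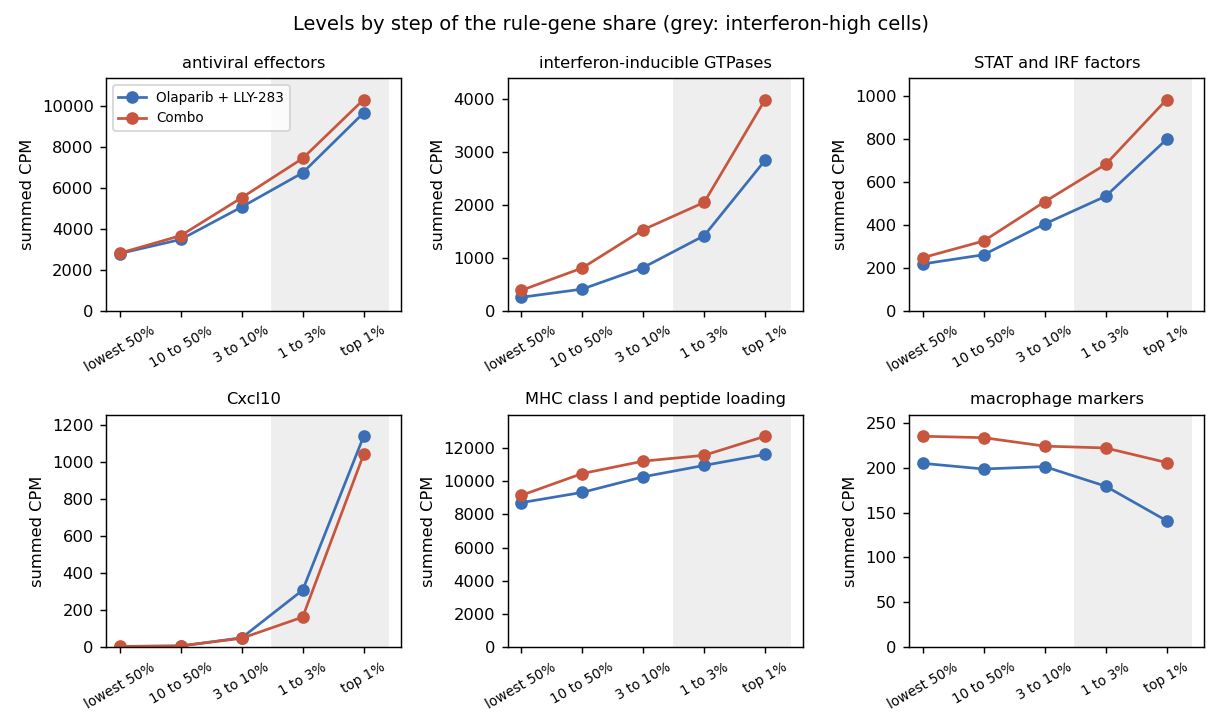
Summed CPM of 5 gene lists and of Cxcl10 in tumor cells ordered by their share of the 8 genes (x axis, from the lowest 50% to the top 1%), in the Olaparib + LLY-283 tumors (blue) and Combo (red), with the interferon-high cells on grey. Antiviral genes, GTPases and STAT and IRF factors climb at each step, Cxcl10 climbs mostly within the top 3%, and macrophage markers do not climb.

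The interferon-high cells varied among themselves. All had a UMI of Isg15, but 30 of 321 (9.35%) and 2 of 74 (2.70%) had none of Ifit1, Ifit3 or Ifit3b, and Isg15 made up more than 80% of the chosen UMIs in 25 and 4 cells. The median cell had UMIs of 5 of the 8 genes in the Olaparib + LLY-283 tumors and of all 8 in Combo, where each tumor cell had more UMIs. The cells were then split by the share of their UMIs from the 3 Ifit genes, and the highest and lowest of 3 equal parts (terciles) were compared, 107 cells each in the Olaparib + LLY-283 tumors and 24 each in Combo. Cxcl10 stood at 1187 CPM in the highest tercile and 140.1 CPM in the lowest in the Olaparib + LLY-283 tumors, and at 1107 and 65.0 CPM in Combo. Rsad2 stood at 1117 and 120.1 CPM and at 1188 and 84.9 CPM, Mx1 at 70.5 and 15.8 CPM and at 163 and 18.2 CPM, and Gbp5 at 173 and 36.7 CPM and at 363 and 79.3 CPM. Usp18 stood at 214 and 73.4 CPM and at 199.8 and 114 CPM, Iigp1 at 273 and 56.7 CPM and at 241 and 74.5 CPM, and Stat2 at 92.8 and 44.2 CPM and at 145 and 65.0 CPM. These 7 genes were higher in the highest tercile in both libraries. The highest tercile also held more of the 8 genes together, 4630 against 2642 CPM and 7219 against 3109 CPM, so the split in part ranks the cells by the rule again.

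Other members of the response differed less between the terciles. Isg15, itself a gene of the rule, and so tied to the Ifit genes by the choice of cells, stood at 2036 and 1841 CPM in the highest and lowest tercile of the Olaparib + LLY-283 tumors and at 2973 and 2161 CPM in Combo, and Bst2 at 1222 and 1037 CPM and at 983 and 1215 CPM. Irf7 stood at 227 and 182 CPM and at 237 and 186 CPM, and the MHC class I list at 11557 and 11345 CPM and at 12327 and 11783 CPM. Ccl5 went in opposite directions, with 110.4 and 724 CPM in the Olaparib + LLY-283 tumors and 904 and 149 CPM in Combo, where single cells held most of its UMIs. The Spearman correlation across interferon-high cells of the UMI share of Ifit1 with that of Rsad2 was 0.58 in 321 cells and 0.79 in 74 cells, with Isg15 it was 0.00 and -0.05, and with Bst2 -0.07 and -0.24. Gbp3 and Bst2 had a correlation of 0.32 and 0.54. These values describe sparse counts within 1 library each, and genes on which the cells were chosen compete for the same sum.

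**Figure D5:**
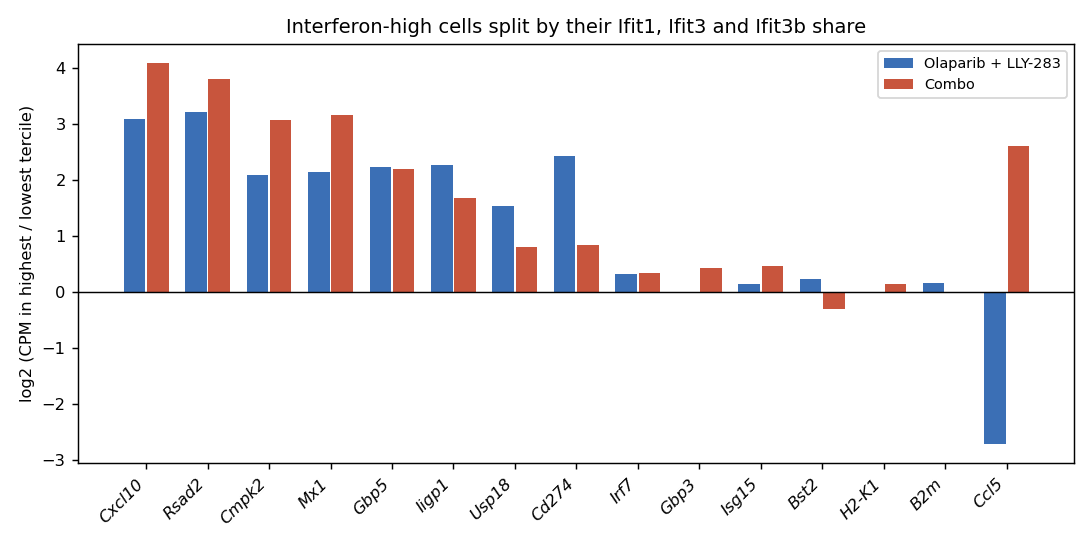
Log2 ratio of CPM between the highest and the lowest tercile of interferon-high cells by their share of Ifit1, Ifit3 and Ifit3b, for the genes named on the horizontal axis in the Olaparib + LLY-283 tumors (blue) and Combo (red). Cxcl10, Rsad2, Cmpk2, Mx1 and Gbp5 exceed 2 on this scale in both libraries, Irf7, Isg15, Bst2, H2-K1 and B2m stay within 0.5 of 0, and Ccl5 has opposite signs.

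Between the libraries, levels in the interferon-high cells can only be set side by side. The summed GTPases stood at 1835 CPM in the Olaparib + LLY-283 tumors and 2661 CPM in Combo, a ratio of 1.45 (1.41 to 1.496), and in the other tumor cells the same ratio was 1.79 (1.77 to 1.81). For the antiviral list the ratios were 1.10 (1.08 to 1.12) and 1.03 (1.03 to 1.04), and for MHC class I genes 1.07 and 1.08. The higher GTPase level of the Combo library was therefore not particular to the interferon-high cells, and treatment, mice and library cannot be told apart as its source.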

How the data were processed

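The authors deposited 10x Genomics 3′ UMI count matrices of filtered cell barcodes, 1 per group, with 55450 genes (mm10). The submitters' processing notes name Cell Ranger, bcl2fastq 5.0.1 and Seurat 4.1.0, and the matrix headers give Cell Ranger 6.1.2. Matrix totals were 147214934 UMIs (Olaparib + LLY-283, median 7376 per cell) and 162522700 UMIs (Combo, median 3613.5).

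Tumor cells had at least 200 genes and 2000 UMIs, under 20% mitochondrial UMIs, 2 or more UMIs of Krt8 and Krt18, under 0.02% of UMIs from Tyrobp and Ptprc and from Col5a2, and fewer than 2 Il24 UMIs. The top 3% by the share of the 8 rule genes in each library were compared with the rest. No doublet caller was run; cells with the most UMIs or any Tyrobp or Ptprc UMI were left out as alternatives. Counts were summed per class and divided by the class total (CPM). Log2 folds added 0.5 UMIs to each sum. Intervals were Poisson, exact conditional (folds) or Clopper-Pearson (shares), and a share of 0 was given the limit of 3 cells of the total. With 1 library per group there was no test. Named genes were the 25 with the largest smaller-of-both fold, the 10 most negative, the 5 differing most between libraries, the most abundant of each list, and all ligands, receptors and factors. Ccl4, and some other list members, were named after their values were seen, and 1 gene that the rule names is not reported here. The members, gene lists and rules were chosen with earlier results of these data known. The fold step was tested on simulated data for the comparison of interferon-high with other tumor cells over 10736 genes. It called 100 of 100 genes set 4-fold higher and 98 of 100 set 4-fold lower. The simulated data were Poisson counts at the class totals, without variation between cells and without a choice of cells. This recovery therefore does not describe how reliable the calls on the measured cells are. Python 3.11.15, numpy 2.4.6, scipy 1.17.1 and pandas 2.3.3 were used.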

Additional observations from a re-analysis of the deposited data

How the results depend on the processing

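The number of genes higher in both libraries, 118, was 76 with a 10 CPM filter and 209 at 1.5-fold, and between 88 and 163 under the other 13 alternatives. Of these, 88 came from leaving out, for each gene, its 5 highest interferon-high cells, a choice made after seeing the data that trims 1 side only and by construction tends to lower a level there, with 457 genes lower in both libraries in place of 5. All 88 were among the 118. The antiviral count of 28 lay between 19 and 33. The number of lower genes was not stable. In place of 5 it was 62 in the top 1%, 2 in the top 5%, 2 after thinning to 2000 UMIs, 10 without the 5% of tumor cells with most UMIs, 13 without any Tyrobp or Ptprc UMI, 12 with equal weight for each cell, 22 at 1 CPM, 0 at 10 CPM and 65 at 1.5-fold, and the 62 and the 13 held 1 of the 5 genes each. The larger log2 fold of Pgf turned to 0.000891 in the top 1% and 0.32 with equal weight, that of Sv2a to 0.13 after thinning and that of Nrbp2 to 0.19 without Tyrobp or Ptprc UMIs. The cause was not tested. The summed antiviral fold, 2.33 in Olaparib + LLY-283 tumors and 2.48 in Combo, was 2.90 and 2.98 in the top 1%, 2.14 and 2.30 in the top 5%, 2.20 and 2.41 after thinning, 2.40 and 2.73 without Tyrobp or Ptprc UMIs, 2.41 and 2.53 with equal weight, 2.29 and 2.40 when Isg15 was left out of the choice, and 2.51 in Combo with the others weighted to the same depth. Of 624 values of 48 named genes under alternatives, 516 stayed within the counting interval, 104 moved beyond it and 4 reversed. A change of sign counted as a reversal only where the main log2 value was at least 1 in size. Neurl1a, Rflnb, Mmp19, Ypel2 and Ulk3, among the most negative genes, could therefore not be counted as reversed. No paired analysis was possible because each group is 1 library. Requiring 10 or more UMIs of the rule genes, also chosen after seeing the data, left 118 higher and 6 lower genes. The 5 lower genes had between 2 and 12 UMIs each in the interferon-high cells of a library, which limits their precision.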

Other observations

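Of the 118 genes higher in both libraries, 81 were on a list and 37 on none. These 37 were named after their values were seen. They included several IFI200 family genes, which encode nuclear DNA-binding proteins. Of this family Ifi213 was compared and not called, with log2 folds of 0.47 and 0.27. Ifi202b stood at 365 against 145 CPM in the Olaparib + LLY-283 library and 405 against 149.6 CPM in Combo, and Mndal at 217 against 93.7 CPM and 213 against 94.7 CPM. Ifi211 and Ifi207 were higher too, with folds of 2.38 and 2.67 and of 3.53 and 5.58. Mndal, Ifi211, Ifi203 and Ifi202b lay together within chr1:173849126-173982744. Sp100, a core protein of nuclear bodies, stood at 62.8 against 16.6 CPM and 88.2 against 17.8 CPM, and Daxx, which resides in the same bodies, at 76.7 against 18.1 CPM and 78.8 against 18.4 CPM. Tor3a, an interferon-responsive torsin ATPase, stood at 124 against 28.0 CPM and 128 against 28.9 CPM. Slfn9 stood at 63.6 against 15.1 CPM and 68.7 against 18.3 CPM, beside Slfn8 and Slfn2 on chromosome 11.

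Some of the 37 were scarce and rested on few cells. Acod1, which makes itaconate in activated myeloid cells, stood at 6.85 against 2.45 CPM and 12.9 against 3.12 CPM, and the top 5 cells held 48.0% and 60.4% of its UMIs. Rnd1 was alike, with 48.5% and 61.1% in the top 5 cells, and neither gene was called without these cells.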
